A study of Macaca mulatta with 24 samples.

Results

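The genes described here are 10 genes of lipid-associated and scavenger macrophages, CHIT1, MSR1, MARCO, TREM2, GPNMB, SPP1, CD9, CD68, ITGAX and CHI3L1, which make up 10 of the 32386 rows of the counts table. Each symbol mapped to 1 Ensembl gene, and all 10 genes passed the filter on low counts. The set was chosen by gene function with earlier results of these data known. CHIT1, for one, was already known as one of the larger increases of *T* + *WSD* against *C*. The levels and fold changes of the 10 genes in that comparison are therefore given as a description, with no test.

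RNA-seq was done on omental white adipose tissue (WAT), a visceral fat depot, from 24 female rhesus macaques in 4 groups of 6, with 1 library per animal. Controls (*C*) carried cholesterol implants and ate monkey chow, and *T* animals carried testosterone implants, a model of hyperandrogenemia, on the same chow. *WSD* animals carried the control implants and ate a high-fat western-style diet, and *T* + *WSD* animals had both treatments. Treatment lasted 3 years in all groups. Age is 4 years by the sample labels and higher at biopsy by the methods of the study. By those methods, the animals were picked from larger cohorts as representative of their group in traits such as fat mass, so their spread may be narrower than that of the cohorts. The tissue was taken whole, and in such bulk samples more cells of a type and more RNA per cell cannot be told apart.

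Adipose tissue holds resident macrophages, and in expanding fat further macrophages gather around dying adipocytes and take up the lipid that these release. Such lipid-associated macrophages carry the lipid receptor TREM2 and express genes for lysosomes, lipid handling and secreted matrix proteins. Scavenger receptors are cell surface proteins that bind modified lipoproteins, microbes and cell debris and bring them into the cell. Most of the 10 genes are also expressed by other cells to some degree, CD9 widely so.

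Libraries held between 6899185 and 28270776 counts (median 20630512.5). Levels are given as CPM, counts scaled to a library of 1000000 after TMM normalization, and are compared between groups, not between genes. In 8 libraries, 2 in each group, 1 gene (ENSMMUG00000038258) took between 9.92% and 54.7% of the counts, against 0.879% to 2.51% in the other 16, and the smallest library held 3125930 counts without that gene. Markers of the labelled tissue were present in every library, with ADIPOQ at 381 CPM or more and PLIN1 at 315 CPM or more. Mesothelial markers, from the lining that covers the omentum, differed most. The summed level of 11 tested mesothelial genes ran from 2836 to 39020 CPM in *C*, from 2857 to 17620 CPM in *T*, from 754 to 6055 CPM in *WSD* and from 273 to 3123 CPM in *T* + *WSD*. The summed level of 18 general and resident macrophage genes, such as CD14, CSF1R and CD163, ran from 619 to 2625 CPM in *C*, from 887 to 2147 CPM in *T*, from 1127 to 2332 CPM in *WSD* and from 1541 to 2379 CPM in *T* + *WSD*, so its groups overlapped. Defining markers of neutrophils reached 2.62 CPM (MPO) and 8.52 CPM (CSF3R), those of dendritic cells reached 4.41 CPM (FLT3) and 11.3 CPM (CD1C), and none was at 0 in any library.

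In the combined treatment, the 10 genes differed from the controls in both directions. The fitted log2 fold changes of *T* + *WSD* against *C* ran from 4.33 for CHIT1, over 2.47 for SPP1, 1.77 for ITGAX, 1.66 for MSR1, 1.34 for GPNMB, 1.27 for TREM2 and 0.83 for CD68, to -0.86 for CHI3L1, -1.24 for CD9 and -1.55 for MARCO. The standard errors ran from 0.25 for CD9 to 1.19 for MARCO. For the other comparisons and for genes outside the 10, a gene was called at an edgeR adjusted p under 0.05 over the 15207 genes tested and a fold change over 1.5.

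**Figure D1:**
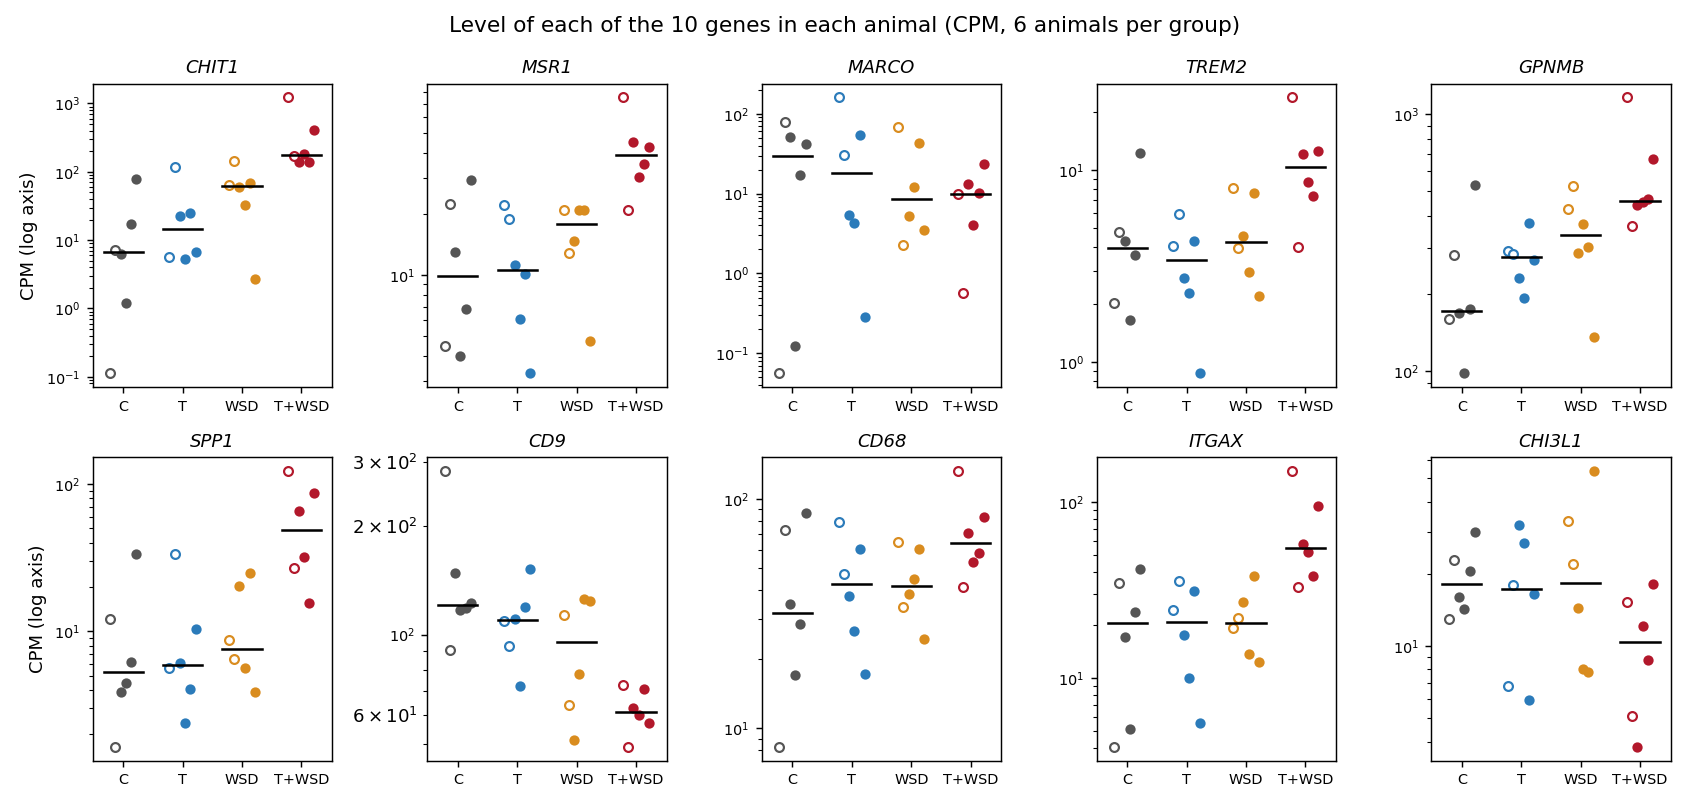
CPM of the 10 genes in each animal on log axes, with the 4 groups on the horizontal axis, a line at the group median, and open circles for the 8 libraries in which 1 gene took over 5% of the counts. All 6 *T* + *WSD* animals lie above every *C* animal for CHIT1 and below every *C* animal for CD9, and for the other genes the 2 groups overlap.

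Of the secreted proteins, CHIT1 showed the largest differences. CHIT1 encodes chitotriosidase, a chitinase made by activated and lipid-laden macrophages and known as a plasma marker of lipid storage disease. Its level in *C* ran from 0.113 to 79.2 CPM, with a median of 6.69 CPM. In *T* it ran from 5.37 to 117 CPM (median 14.7 CPM), and in *WSD* from 2.66 to 145 CPM (median 61.8 CPM). In *T* + *WSD* it ran from 139 to 1225 CPM, with a median of 176 CPM. Every *T* + *WSD* animal was thus above every *C* and every *T* animal, while 2 of the 6 lay below the highest *WSD* animal. The spread within groups was wide. The lowest control had 2 CHIT1 counts and the highest 1939. The fitted log2 fold change of *T* + *WSD* against *C* was 4.33 (SE 1.13), or 20.1-fold. Across all tested genes, 3.49% lay in *T* + *WSD* above every control.

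SPP1 encodes osteopontin, a secreted phosphoprotein that binds integrins and CD44 and is made by lipid-associated macrophages. It ran from 1.64 to 33.6 CPM in *C* (median 5.34 CPM) and from 2.40 to 33.3 CPM in *T* (median 5.90 CPM). In *WSD* it ran from 3.87 to 24.9 CPM (median 7.62 CPM), and in *T* + *WSD* from 15.5 to 122 CPM (median 48.9 CPM). The medians of the 3 groups without the combined treatment lay between 5.34 and 7.62 CPM, and 3 of the 6 *T* + *WSD* animals exceeded every control. Against *C*, the log2 fold change of *T* + *WSD* was 2.47 (SE 0.71).

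CHI3L1 encodes a chitinase-like protein that binds chitin without cleaving it, and it lies next to CHIT1 on the same chromosome in the RefSeq annotation of assembly T2T-MMU8v2.0, with 0 annotated genes between them. As near relatives, the 2 genes could share reads, which the deposited counts do not show. Unlike CHIT1, its medians were lowest in *T* + *WSD*. CHI3L1 ran from 13 to 29.9 CPM in *C* (median 18.2 CPM), from 5.96 to 32.1 CPM in *T* (median 17.3 CPM), from 7.83 to 53.6 CPM in *WSD* (median 18.2 CPM) and from 3.79 to 18.2 CPM in *T* + *WSD* (median 10.4 CPM). Of the 6 *T* + *WSD* animals, 4 lay below every control. Its log2 fold change against *C* was -0.86 (SE 0.48).

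Of the scavenger receptors, MSR1, the class A receptor SR-AI, takes up modified low-density lipoprotein. It ran from 4.00 to 29.4 CPM in *C* (median 9.89 CPM), from 3.28 to 22.2 CPM in *T* (median 10.6 CPM), from 4.74 to 21 CPM in *WSD* (median 17.8 CPM) and from 20.9 to 75.1 CPM in *T* + *WSD* (median 39.0 CPM). Of the *T* + *WSD* animals 5 exceeded every animal of *C*, and the same number exceeded every animal of *T* and of *WSD*. This gave a log2 fold change against *C* of 1.66 (SE 0.50), a 3.15-fold difference.

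MARCO, a related class A receptor best known from macrophages of lung, spleen and body cavities, had the widest fold range of the 10 genes among controls. It ran from 0.0562 to 78.8 CPM in *C* (median 29.3 CPM) and from 0.281 to 160 CPM in *T* (median 18.1 CPM). In *WSD* it ran from 2.30 to 68.1 CPM (median 8.68 CPM), and in *T* + *WSD* from 0.565 to 23.2 CPM (median 10 CPM). The lowest control library held 1 MARCO count and the lowest *T* + *WSD* library 2. All groups overlapped, and the log2 fold change of *T* + *WSD* against *C*, -1.55, had an SE of 1.19.

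Among surface receptors of lipid-associated macrophages, TREM2 binds lipids and apolipoproteins and signals through the adaptor TYROBP. Its counts were low. It ran from 1.65 to 12.2 CPM in *C* (median 3.95 CPM), from 0.875 to 5.93 CPM in *T* (median 3.40 CPM), from 2.20 to 8.03 CPM in *WSD* (median 4.22 CPM) and from 3.96 to 23.9 CPM in *T* + *WSD* (median 10.4 CPM). The highest control lay above the *T* + *WSD* median, and 2 of 6 *T* + *WSD* animals exceeded every control. Its log2 fold change against *C* was 1.27 (SE 0.49).

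ITGAX, the integrin alpha chain CD11c, marks both dendritic cells and the macrophages that gather in obese fat. It ran from 4.05 to 41.4 CPM in *C* (median 20.5 CPM), from 5.53 to 35.5 CPM in *T* (median 20.9 CPM), from 12.3 to 38.1 CPM in *WSD* (median 20.6 CPM) and from 32.8 to 150 CPM in *T* + *WSD* (median 54.9 CPM). The medians of the first 3 groups lay between 20.5 and 20.9 CPM, and 4 of 6 *T* + *WSD* animals exceeded every control. Against *C*, ITGAX had a log2 fold change of 1.77 (SE 0.53).

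CD9, a tetraspanin that organizes other membrane proteins, is a surface marker of lipid-associated macrophages in fat but is made by many cell types. Its median was lower in *T* + *WSD* than in the other groups. It ran from 90.5 to 283 CPM in *C* (median 120 CPM), from 72.2 to 152 CPM in *T* (median 110 CPM), from 51.0 to 125 CPM in *WSD* (median 95.6 CPM) and from 48.9 to 72.8 CPM in *T* + *WSD* (median 61.3 CPM). All 6 *T* + *WSD* animals lay below every control, as did 4.12% of all tested genes. The log2 fold change against *C* was -1.24 (SE 0.25).

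Of the lysosomal proteins, GPNMB, a glycoprotein of lysosomes and the cell surface induced in lipid-loaded macrophages, ran from 98 to 527 CPM in *C* (median 171 CPM), from 192 to 376 CPM in *T* (median 278 CPM), from 135 to 524 CPM in *WSD* (median 338 CPM) and from 367 to 1160 CPM in *T* + *WSD* (median 459 CPM). A single control, at 527 CPM, lay above the *T* + *WSD* median, and the other 5 lay below every *T* + *WSD* animal. The log2 fold change against *C* was 1.34 (SE 0.36). CD68, a lysosomal membrane protein used as a general macrophage marker, ran from 8.27 to 87.0 CPM in *C* (median 31.7 CPM), from 17.2 to 79.6 CPM in *T* (median 42.4 CPM), from 24.4 to 64.9 CPM in *WSD* (median 41.7 CPM) and from 41.3 to 132 CPM in *T* + *WSD* (median 64.5 CPM). Here 1 of 6 *T* + *WSD* animals exceeded every control, and the log2 fold change was 0.83 (SE 0.45).

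The same animals stood at the ends of most ranges. Animal 7 was the highest of *T* + *WSD* for 8 of the 10 genes and animal 6 the highest control for 8. At the low end, animal 8 was the lowest of *T* + *WSD* for 7 genes and animal 24 the lowest of *WSD* for 7. Animal 1 was the lowest control for 5 genes, CHIT1, MARCO, CD68, ITGAX and CHI3L1, and the highest for CD9. It had the lowest mean log2 CPM of all 24 animals over 11 tested adipocyte genes (7.19) and the 18 macrophage genes (4.14). Over the 11 mesothelial genes it had the highest (7.42). Without it, 900 of 15330 genes were called in *T* + *WSD* against *C*, beside 1522 of 15207 in the fit of all animals. Animals 1, 7 and 8 belong to the 8 libraries with the abundant gene.

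In the 16 libraries without much of the abundant gene, with 4 animals per group, the differences between the group means of log2 CPM of *T* + *WSD* and *C*, which are not the fitted fold changes, were 4.23 for CHIT1, 2.38 for SPP1, 1.89 for MSR1, 1.73 for ITGAX, 1.34 for GPNMB and -1.01 for CD9. In the other 8 libraries, 2 against 2 and untested, they were 8.54, 3.64, 1.96, 2.55, 1.62 and -1.42. The value of 8.54 for CHIT1 rests in part on control animal 1, near the floor with 2 CHIT1 counts and a log2 CPM of -2.23, beside 2.84 in control animal 2. In the 16 and the 8 libraries, the differences were 1.21 and 1.62 for TREM2, 0.905 and 1.58 for CD68, and -1.05 and -0.955 for CHI3L1. MARCO differed in sign between these library sets, at 0.17 and -0.45.

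Neither treatment alone gave a call among the 10 genes. In *WSD* against *C*, edgeR called 0 of the 10, and 0.00% of all tested genes. At an unadjusted p under 0.05 there was 1 of the 10, CD9, against 18.5% of all genes. DESeq2 also called 0 of the 10, and 1.58% of its tested genes. The log2 fold changes ran from -0.66 for CD9 (SE 0.25, edgeR adjusted p = 0.178) to 1.72 for CHIT1 (SE 1.02, adjusted p = 0.366), with GPNMB at 0.54 (SE 0.35, adjusted p = 0.416). In *T* against *C*, edgeR called 0 of the 10 and 0.00% of all genes, 0 of the 10 passed an unadjusted p under 0.05 against 8.63% of all genes, and DESeq2 called 0 of the 10 and 0.0290% of its tested genes. There the log2 fold changes lay between -0.53 for TREM2 (SE 0.49) and 0.68 for CHIT1 (SE 1.0), and that of CD9 was -0.42 (SE 0.25). The standard errors of CHIT1 and MARCO, both over 1 on the log2 scale, leave room for differences of several-fold in either comparison. Between the single treatments, *WSD* against *T*, edgeR called 0 of the 10 and 0.00% of all genes, with 0 of the 10 and 9.81% of all genes at an unadjusted p under 0.05, and DESeq2 called 0 of the 10 and 0.225% of its genes. The outer values there were -0.94 for MARCO (SE 1.16) and 1.04 for CHIT1 (SE 1.0).

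**Figure D2:**
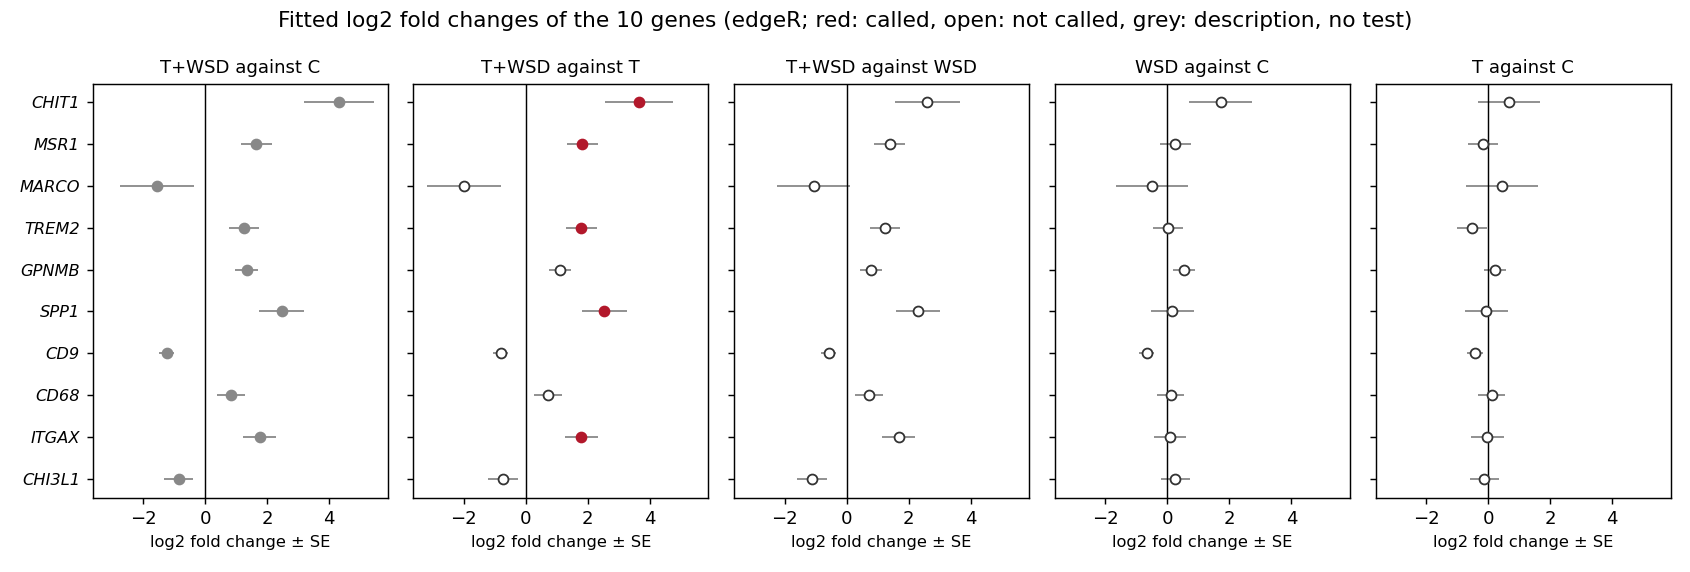
Fitted log2 fold changes with their standard errors (horizontal axis) for the 10 genes in 5 comparisons, filled red where called by edgeR and grey in *T* + *WSD* against *C*, which is a description. Against *T*, *T* + *WSD* has 5 genes called higher, while against *WSD*, and for each treatment alone, none is called.

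The comparisons of *T* + *WSD* with the single treatments share the *T* + *WSD* animals with the comparison by which the genes were known, and are read with that in mind. Against *T*, which asks what the diet adds under testosterone, 5 of the 10 genes were called higher and 0 lower, while 3.77% of all tested genes were called and 2.34% called higher. SPP1 was higher by a log2 fold change of 2.53 (SE 0.72, edgeR adjusted p = 0.0401), with 3 of 6 *T* + *WSD* animals above every *T* animal. For CHIT1 the value was 3.65 (SE 1.09, adjusted p = 0.0474), with all 6 above, as were 2.99% of all tested genes. MSR1 was higher by 1.82 (SE 0.50, adjusted p = 0.0361), TREM2 by 1.79 (SE 0.50, adjusted p = 0.0364) and ITGAX by 1.79 (SE 0.53, adjusted p = 0.0465), each with 5 of 6 animals above every *T* animal.

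The remaining genes did not pass with edgeR in that comparison. DESeq2 called 7 of the 10, with GPNMB and CD9 added, and 1090 of its 17862 tested genes. GPNMB had a log2 fold change of 1.11 (SE 0.36, adjusted p = 0.0617) and CD9 one of -0.81 (SE 0.25, adjusted p = 0.0520). For CD68 it was 0.71 (SE 0.45), for CHI3L1 -0.73 (SE 0.48) and for MARCO -2.0 (SE 1.2). The 5 calls lay close to the threshold. With 1 animal left out at a time, 8 of 24 fits called 0 of the 10 genes, those without *T* animal 15, 16, 17 or 18 and those without *T* + *WSD* animal 7, 9, 10 or 12. These 8 fits called between 238 and 392 of all tested genes, against 574 in the fit of all animals. Of the 10, the fit without *T* animal 13 called only MSR1, with 332 genes called in all. The fit without *T* + *WSD* animal 8 called only MSR1 and TREM2 of the 10, with 252 genes called in all. In the 16 libraries without much of the abundant gene, MSR1 alone of the 10 was called, beside 308 of 15448 tested genes. Its log2 fold change there was 2.34 (edgeR adjusted p = 0.0453).

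Against *WSD*, which asks what testosterone adds under the diet, edgeR called 0 of the 10 genes and 0.815% of all tested genes. At an unadjusted p under 0.05 there were 8 of the 10, all but MARCO and CD68, against 20% of all genes. DESeq2 called 2 of the 10, SPP1 and ITGAX, and 2.62% of its tested genes. The log2 fold change was 2.30 for SPP1 (SE 0.71, edgeR adjusted p = 0.0819), 1.68 for ITGAX (SE 0.53, adjusted p = 0.0858) and 1.4 for MSR1 (SE 0.50, adjusted p = 0.120). These 3 had 5, 4 and 5 of 6 *T* + *WSD* animals above every *WSD* animal. No member had all 6 above, and 1.47% of all tested genes did. CHIT1 had a value of 2.61 (SE 1.04, adjusted p = 0.160), TREM2 of 1.25 (SE 0.49, adjusted p = 0.151) and GPNMB of 0.80 (SE 0.36, adjusted p = 0.211). CD9 was at -0.58 (SE 0.25, adjusted p = 0.197) and CHI3L1 at -1.11 (SE 0.49, adjusted p = 0.199). CD68 and MARCO were at 0.72 (SE 0.45) and -1.06 (SE 1.18).

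The interaction asks whether the effect of testosterone differed between the diets, as *T* + *WSD* against *WSD* minus *T* against *C*. At the study's threshold of an adjusted p under 0.1, edgeR called 0 of the 10 genes and 0.809% of all tested genes, and DESeq2 0 of the 10 and 2.77%. At an unadjusted p under 0.05 there were 4 of the 10, against 13.5% of all genes. These were SPP1 with a log2 value of 2.36 (SE 0.98, edgeR adjusted p = 0.289), TREM2 with 1.78 (SE 0.69, adjusted p = 0.258), ITGAX with 1.70 (SE 0.74, adjusted p = 0.307) and MSR1 with 1.56 (SE 0.70, adjusted p = 0.329). CHIT1 had 1.93 with an SE of 1.41 (adjusted p = 0.598), and CD9 -0.15 with an SE of 0.35.

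Other macrophage genes were counted in *T* + *WSD* against *C*, where 10% of all tested genes were called, 4.72% higher and 5.29% lower. Of 18 tested general and resident macrophage genes, 1 was called higher and 0 lower, and the median log2 fold change was 0.28, beside -0.04 over all tested genes. The gene called was STAB1, a scavenger receptor of resident macrophages and endothelium, at 0.98 (SE 0.27). Of 21 tested genes of the lipid-associated macrophage programme, 5 were called higher and 0 lower, with a median of 0.72. They were LIPA (1.04, SE 0.36), the lysosomal acid lipase, FTL (0.98, SE 0.14), the ferritin light chain, the fatty acid carrier FABP4 and the cathepsins CTSD and CTSZ. Adipocytes express FABP4 too. The adipocyte list, with a median of 0.71, shares FABP4, LPL and CD36 with this programme and also holds LEP, which was called higher at 2.20 (SE 0.74).

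Relatives and partners of single members were counted in the same comparison. Of 18 other scavenger receptors, 4 were called higher (STAB1, SCARF1, SCARB1 and CD163L1) and 2 lower, CXCL16 at -1.36 (SE 0.36) and COLEC12 at -0.69 (SE 0.18). Of 4 tested relatives of CHIT1 in the glycosyl hydrolase 18 family, CHI3L2, OVGP1, CTBS and CHID1, edgeR called 0 and DESeq2 1 in *T* + *WSD* against *C*, and 1 had an unadjusted p under 0.05 in edgeR. This was CHI3L2, at -1.29 (SE 0.48). CHIA was at 0 counts in every library. Of 16 TREM2 partners, with TYROBP at 0.24 (SE 0.37), edgeR called 0 and DESeq2 1, and 2 had an unadjusted p under 0.05 in edgeR. None of the 6 tested genes of the leukocyte integrin list was called by edgeR or DESeq2 or had an unadjusted p under 0.05. These were the integrins ITGAL, ITGAM, ITGB2, ITGAE and ITGB7 and the integrin ligand ICAM1. ITGB2, the beta chain that pairs with ITGAX, ran from 14.8 to 261 CPM in *C* (median 119 CPM) and from 47.5 to 208 CPM in *T* + *WSD* (median 78.1 CPM), so the groups overlapped.

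Of 9 osteopontin receptors, ITGB5 was called higher at 0.71 (SE 0.20). Of 14 other tetraspanins, TSPAN14 was called higher at 0.60 (SE 0.20) and TSPAN8 lower at -2.41 (SE 0.62). Of 15 regulators of macrophage lipid genes, 2 were called higher, MITF (0.90, SE 0.20), a factor for lysosomal genes known to drive GPNMB, and NR1H3 (0.78, SE 0.25), the sterol receptor LXR-alpha. Among 6 genes for macrophage growth factors and receptors, IL34, a ligand of CSF1R, was called higher at 0.98 (SE 0.30).

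Markers of other cells moved too. Of 11 tested monocyte and neutrophil genes, 1 was called higher and 3 lower in *T* + *WSD* than in *C*, while 7 had a positive value and the median was 0.12. Those called lower included S100A8 at -2.97 (SE 0.98) and S100A9 at -3.08 (SE 0.88), and the 1 called higher was MMP9 at 2.08 (SE 0.66). CLEC10A, at 1.51 (SE 0.37), was the 1 of 11 dendritic cell genes called. Of 11 mesothelial genes, 9 were called lower and 0 higher, with a median of -2.62, and of 9 endothelial genes 6 were called higher, with PECAM1 at 0.88 (SE 0.16) and VWF at 0.97 (SE 0.22). DPT, at 0.98 (SE 0.29), was the 1 of 8 fibroblast genes called. Of 8 T and NK cell genes and 4 B and plasma cell genes, edgeR and DESeq2 called 0, and 0 had an unadjusted p under 0.05.

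Each member was next set against the macrophage list within the same library, as its log2 CPM minus the mean log2 CPM of the 18 general and resident macrophage genes. This scale was chosen after the data were seen and is a description. For CHIT1 the difference in mean log2 ratio of *T* + *WSD* to *C* was 5.37, for SPP1 2.51, for ITGAX 1.71, for MSR1 1.62, for GPNMB 1.14, for TREM2 1.05 and for CD68 0.83. For CHIT1, MSR1 and ITGAX, none of the 6 *T* + *WSD* ratios fell within the range of the controls, and all exceeded it. For MSR1 they also lay above every *T* and every *WSD* animal, with ratios from -0.98 to 0.07, against -3.13 to -1.57 in *C*, -3.05 to -1.25 in *T* and -3.06 to -1.44 in *WSD*. In CPM, MSR1 and ITGAX of *T* + *WSD* overlapped the controls. No share of all tested genes is given for the ratio scale, so how unusual such a separation is, in either direction, was not tested.

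On the same scale CHI3L1 and CD9 differed the other way. The difference was -1.31 for CHI3L1, with all 6 *T* + *WSD* animals below every control, and -1.44 for CD9, with 3 of 6 below. MARCO, at -0.33, showed full overlap. With the mean of the macrophage list as a covariate in the edgeR fit, 4 of the 10 genes were called against *T*. The same fit called 409 of all 15207 tested genes there. MSR1, TREM2 and ITGAX were higher and MARCO lower at -2.26 (edgeR adjusted p = 0.0444). Against *WSD* that fit called 0 of the 10 genes and 113 of all tested genes.

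**Figure D3:**
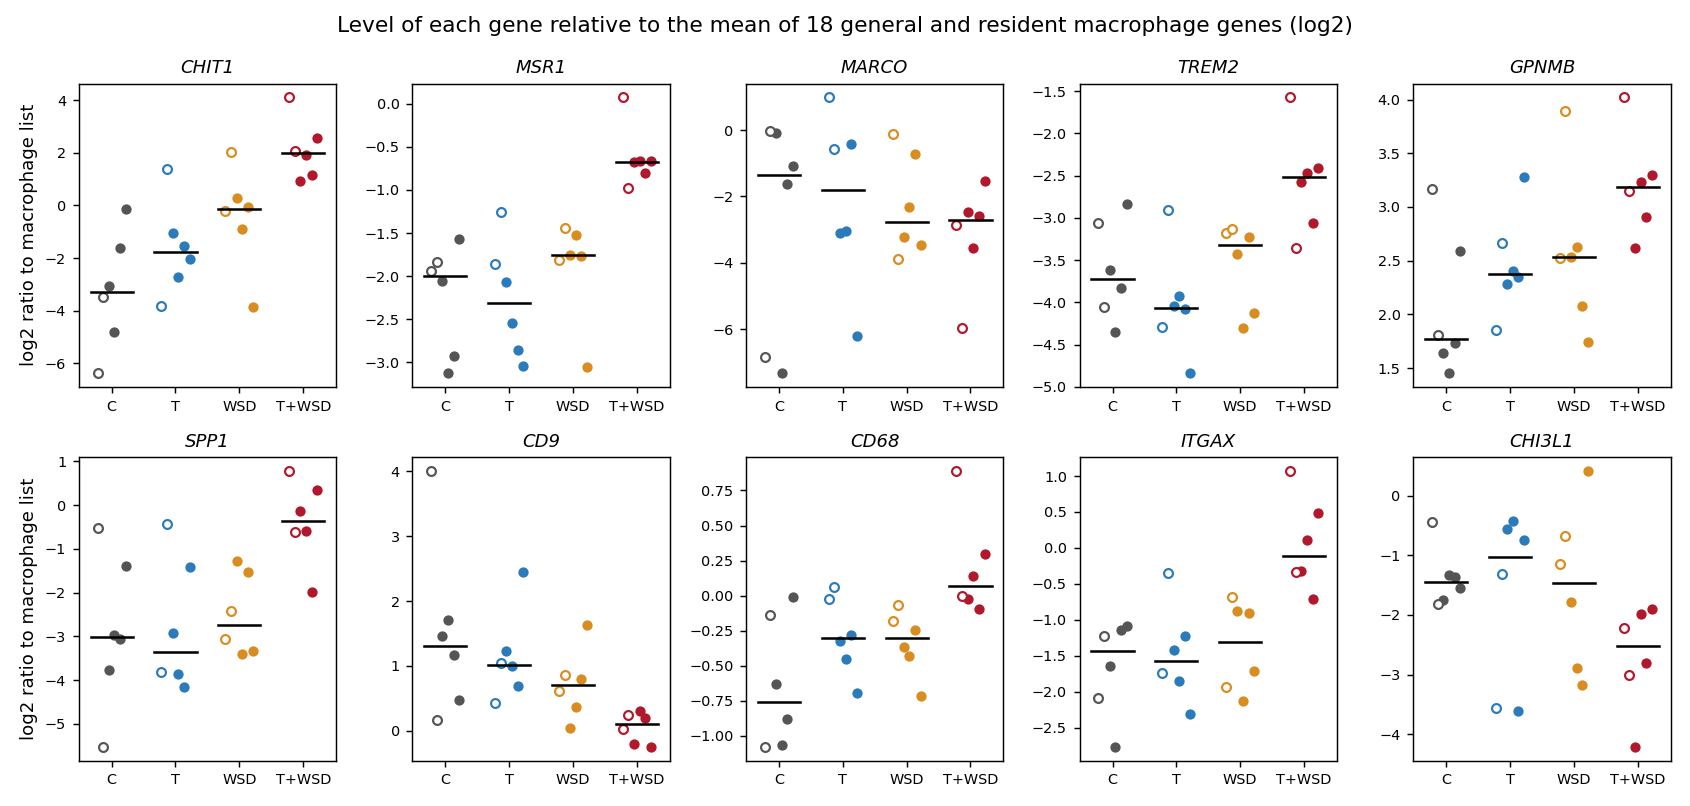
Log2 ratio of each gene to the mean of 18 general and resident macrophage genes in each animal (vertical axis), by group, with a line at the group median and open circles for the 8 libraries with the abundant gene. For MSR1 the 6 *T* + *WSD* animals, from -0.98 to 0.07, lie above all 18 other animals, and for CHI3L1 they lie below every control. No share of all tested genes is given for this scale.

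The mesothelial list fell with the combined treatment, and its values are given beside the members it moved with. Within groups, the deviations of CD9 from the group mean followed those of the mesothelial list with r = 0.78 (n = 24 animals, which share libraries and depth), and those of the adipocyte list with r = -0.73. Both values rest in part on control animal 1. It had the highest CD9 (log2 CPM 8.15), the highest mesothelial mean (7.42) and the lowest adipocyte mean (7.19) of all animals. Values of r without it were not computed. With the mesothelial mean as a covariate, the log2 fold change of CD9 in *T* + *WSD* against *C* went from -1.24 to -0.08. That of CHIT1 went from 4.33 to 2.54 and that of GPNMB from 1.34 to 0.93, while MSR1 went from 1.66 to 1.56, SPP1 from 2.47 to 2.30 and TREM2 from 1.27 to 1.27. In that fit of this comparison edgeR called 0 of 15207 genes, with 574 of them at an unadjusted p under 0.05. The mesothelial level was itself lower in *T* + *WSD* than in *C*, and its part in the differences cannot be told apart from that of the treatment.

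**Figure D4:**
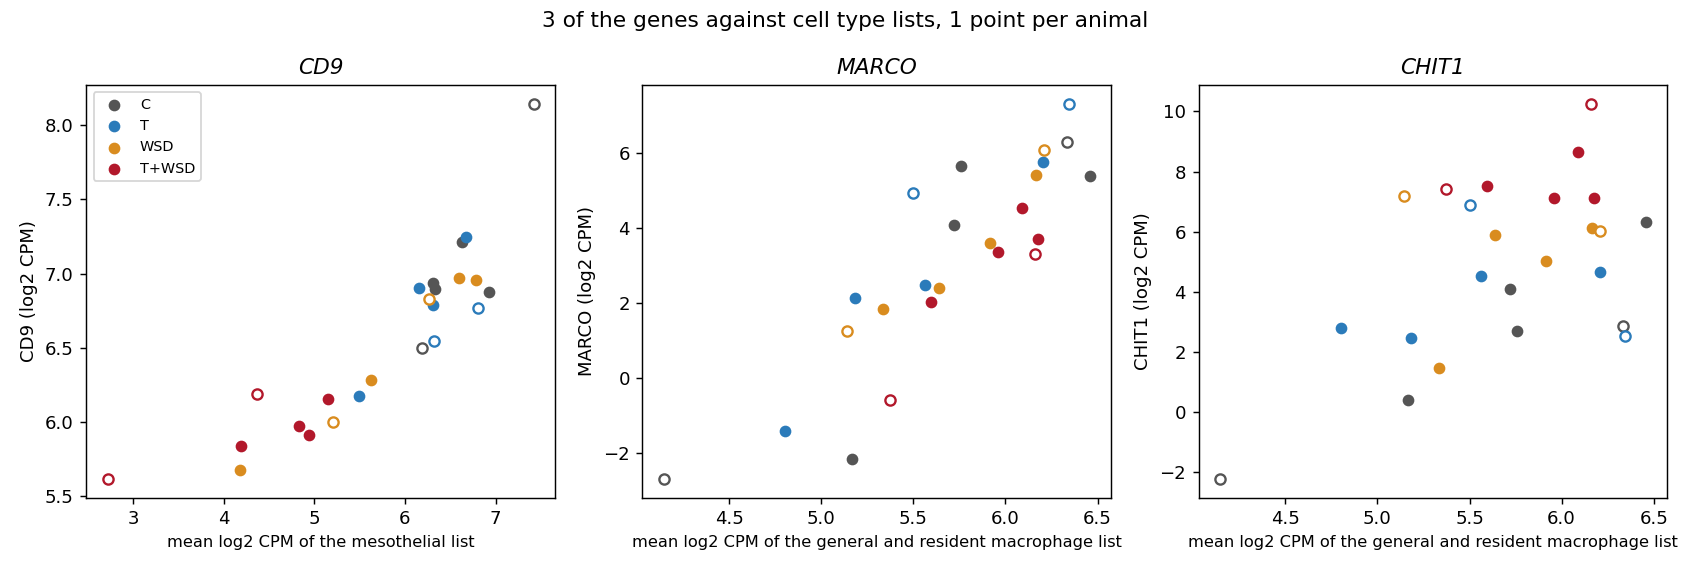
Log2 CPM of CD9 against the mean log2 CPM of the mesothelial list, and of MARCO and CHIT1 against that of the general and resident macrophage list, with 1 point per animal, colours for groups and open circles for the 8 libraries with the abundant gene. CD9 and the mesothelial list are low together in *T* + *WSD*, MARCO follows the macrophage list in all groups, and the CHIT1 points of *T* + *WSD* lie above those of *C*.

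Over all 45 pairs of members, the correlation of deviations from the group means ran from -0.43 to 0.91, with a median of 0.46 (n = 24 animals). CHIT1, MSR1, TREM2, GPNMB, CD68 and ITGAX were then grouped by these same values. Their 15 pairs ran from 0.67 to 0.91, with a median of 0.74, a range that follows in part from this choice. The closest pairs were MSR1 with CD68 (0.91), CD68 with ITGAX (0.89) and TREM2 with ITGAX (0.885). These are descriptions over genes measured in the same libraries. CD68 followed the general macrophage list with 0.95 and MARCO with 0.91, MSR1 with 0.81 and CHIT1 with 0.57. CHIT1 followed the lipid-associated list more closely, with 0.79. That list shares FABP4, LPL and CD36 with the adipocyte list, which CHIT1 followed with 0.455, so it is not particular to macrophages. Control animal 1 was the lowest of all animals both for CHIT1 (log2 CPM -2.23) and for the lipid-associated list (6.58).

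MARCO had correlations of 0.825 with MSR1, 0.794 with TREM2, 0.819 with ITGAX and 0.891 with CD68 within groups, and lower ones with CHIT1 (0.545) and GPNMB (0.492). SPP1 had correlations from -0.004 to 0.50 with the other members and of 0.07 with the general macrophage list. CHI3L1 had none above 0.13, and CD9 none above 0.185.

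**Figure D5:**
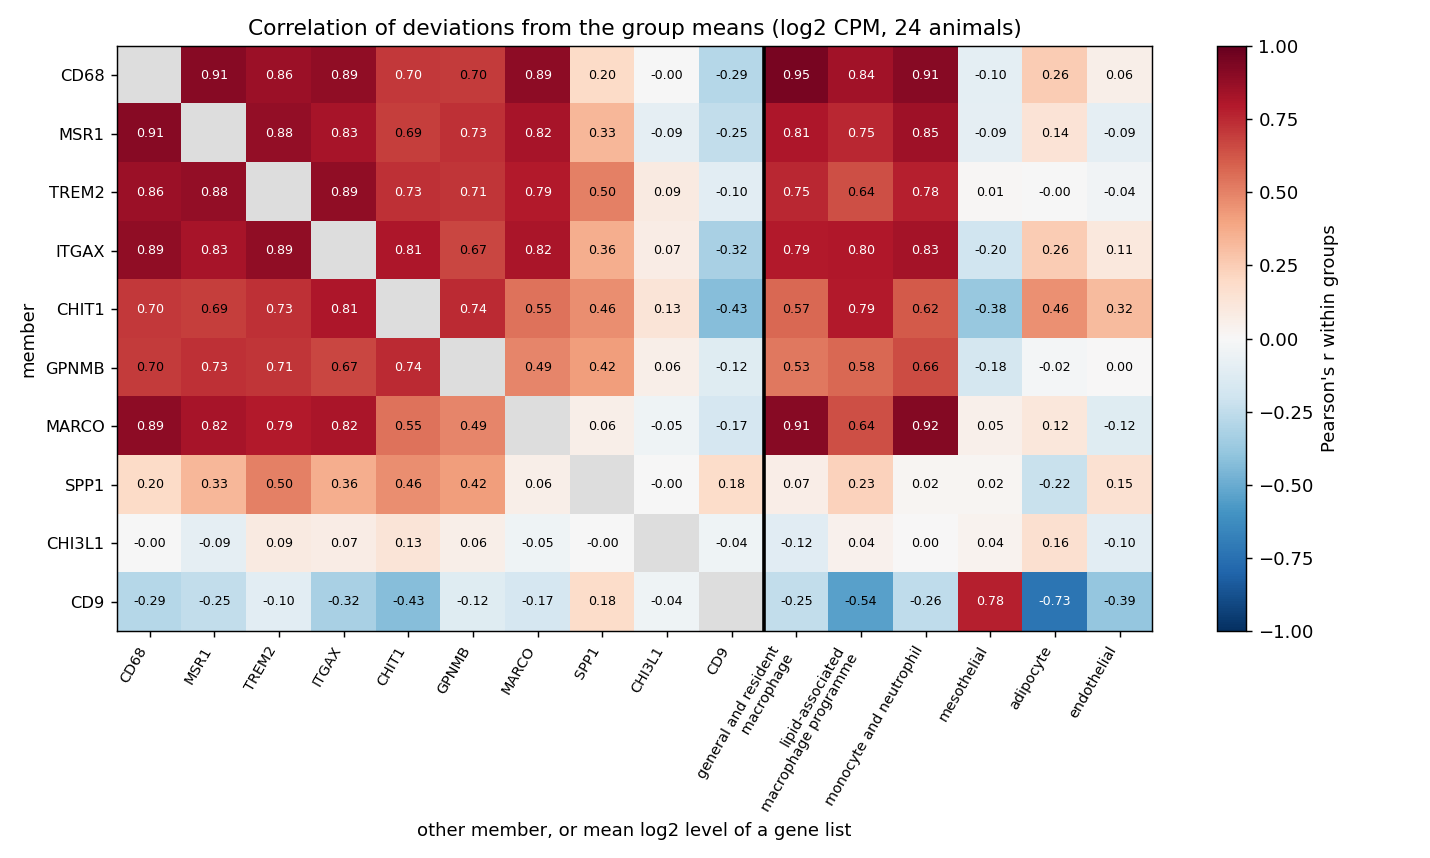
Pearson's r of the deviations from the group means of log2 CPM over 24 animals for each pair of members (left of the line) and for each member with the mean of 6 gene lists (right), with red for positive and blue for negative values. CD68, MSR1, TREM2, ITGAX, CHIT1 and GPNMB, grouped by these same values, form a block from 0.67 to 0.91. MARCO has values from 0.49 to 0.89 with these 6, SPP1, CHI3L1 and CD9 lie outside the block, and CD9 has r = 0.78 with the mesothelial list.

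The genes most like each member over all 24 animals were taken by Spearman's rho of log2 CPM over the tested genes with a symbol. For CHIT1 they were CLCN7 (0.88), a lysosomal chloride transporter, TM4SF19 (0.88) and DCSTAMP (0.88), a protein of macrophage fusion. TM4SF19 was also among those of SPP1 (0.84), with the protease MMP7 (0.84) and ABCC5 (0.84). Over all animals, SPP1 itself had a rho of 0.769 with CHIT1, while the correlation within groups was 0.464. For TREM2 the closest genes were LIPA (0.93), PLCB2 (0.91) and MATK (0.90), and for ITGAX MATK (0.93), CD72 (0.90) and CD84 (0.90). For MSR1 they were SLC37A2 (0.90), CYTH4 (0.89) and RENBP (0.88), and for GPNMB PACC1, CTSC and LGMN (each 0.86), the last 2 of them lysosomal proteases.

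MARCO was closest to CD5L (0.98), a secreted protein of tissue macrophages, the scavenger receptor OLR1 (0.98) and CD300LF (0.97), and CD68 to LPXN (0.96), HAVCR2 (0.96) and MPP1 (0.95). CD9 was closest to SCG5 (0.92), PDLIM4 (0.91) and SMTNL2 (0.91), none of which is on the lists used here. For CHI3L1 no tested gene passed 0.73, the value of GATB, and NOA1 (0.70) and ITGA2B came next. All these correlations share the libraries, their depth and the difference between groups.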

How the data were processed

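RNA from omental WAT of 24 rhesus macaques was sequenced as single reads after ribosomal RNA had been removed. The submitters' processing notes name FastQC 0.11.5, Trimmomatic 0.36, STAR 2.5.2b and DESeq2 1.18.1, and the methods of the study the build rheMac8. The authors deposited raw counts per Ensembl gene, without normalization. The counting tool and its strand setting are not given in the sources used here, so genes that overlap or share near-identical sequence carry that uncertainty. Groups came from the sample labels. Nothing in the labels ties samples to litters or batches, and p-values measure the spread between animals.

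Symbols came from the gene name table or, for genes without one there, from the supplementary tables of the study. The gene name table gave an identifier for all 10 members. Both sources together gave one for 194 of 221 list genes, 186 of which were tested. The members are CHIT1 (ENSMMUG00000008709), MSR1 (ENSMMUG00000002296), MARCO (ENSMMUG00000002610), TREM2 (ENSMMUG00000013920), GPNMB (ENSMMUG00000012648), SPP1 (ENSMMUG00000008793), CD9 (ENSMMUG00000004470), CD68 (ENSMMUG00000013501), ITGAX (ENSMMUG00000014349) and CHI3L1 (ENSMMUG00000008711). Members, lists and tests were chosen with earlier results of these data known.

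The two-sided quasi-likelihood F-test of edgeR 4.0.16 (R 4.3.3, glmQLFit, robust=TRUE, legacy=TRUE) was applied to TMM-scaled counts in 1 fit of 24 libraries and 4 group means. The filter filterByExpr (minimum count 10, minimum total 15) kept 15207 of 32386 genes, and p-values were adjusted by Benjamini-Hochberg over these. Each SE is the size of the log2 fold change divided by the square root of its F value, and is not estimated by the model itself. Log2 CPM values used a prior count of 2. Named were all 10 members, in each list up to 2 called genes in each direction by size in *T* + *WSD* against *C* or else the gene with the smallest p, all genes of lists of 7 or fewer, and the 3 genes most like each member. Further list genes were named after their values were seen. Alternatives were DESeq2 1.42.0, RLE scaling, no filter, at least 10 counts in every library, robust=FALSE, only the groups compared, covariates for the mesothelial list, the macrophage list or the 8 libraries, only the other 16 libraries, other thresholds, and each animal left out. The scale relative to the macrophage list was added after the data were seen, and a permutation test first run on it is not reported because the genes were chosen with results known. The fit was tested on simulated data. DNA methylation was not analysed here, and 1 gene of the monocyte and neutrophil list is not reported here.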

Additional observations from a re-analysis of the deposited data

Results flagged for a closer look

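In 1 of 40 group and gene combinations checked, a single animal stood far from the rest of its group. MSR1 was at 4.74 CPM in *WSD* animal 24, with the other 5 between 12.9 and 21 CPM, and the gap made up 0.67 of the group's range on the log2 scale, above Dixon's critical value for 6 animals. Chance gives such a gap in about 1 of 20 groups. The same animal was the lowest of *WSD* for 7 of the 10 genes.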

How the results depend on the processing

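Over all members, comparisons and settings, 77 of 2356 refitted values changed sign. None of the 372 values of members past the threshold in the main fit did, *T* + *WSD* against *C* included. Such members were picked for values large beside their standard errors, so a kept sign was likely from the start and supports nothing. In *T* + *WSD* against *C*, by which the genes were known, counts of members past the threshold support nothing. They were 6 in the main fit, beside 1522 of 15207 tested genes. With the mesothelial covariate they were 0, as over all genes, and 0 at an unadjusted p under 0.05, against 3.77% of all genes. In the 16 other libraries they were 0, beside 78 of 15448 genes, and 6 at an unadjusted p under 0.05, against 21.1%. With 1 animal left out they were 3 to 7, beside 900 to 1790 of all genes. They were 3 without *T* + *WSD* animal 7 or without control 3. The 5 called against *T*, where 574 of 15207 tested genes were called, became 0 without the filter on low counts (392 of 25131 genes). They became 0 with the mesothelial covariate, where 0 of 15207 genes were called, and 1 in the 16 libraries (308 of 15448 genes). They became 7 with DESeq2 (1090 of 17862 genes) and 7 with only the 2 groups compared (1059 of 14565 genes). With 1 animal left out they ran from 0 to 7, while between 238 and 828 of all tested genes were called. Against *WSD*, DESeq2 called 2 where edgeR called 0. With the mesothelial covariate, the log2 fold change of MARCO turned to 0.21 against *C*, 0.46 against *WSD* and 0.17 in the interaction, and that of CD9 to 0.18 against *WSD*, 0.14 against *T* and 0.40 in the interaction. In the 16 libraries CHIT1 in *T* against *C* turned to -0.79 and MARCO in the interaction to 0.42. With 1 animal left out, *T* against *C* ran from -0.51 to 2.24 for CHIT1 and from -0.75 to 0.043 for TREM2, and *WSD* against *T* from -1.65 to 0.22 for MARCO. The cause of these changes was not tested. No paired analysis was possible because no replicate number is shared between groups. With 6 animals per group, the differences of CHIT1 and MARCO are known to no better than a standard error of about 1 on the log2 scale.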
